A study of Mus musculus with 12 samples.

Results

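Vascular anomalies whose sample titles contain subQ (subcutaneous) were compared with normal adipose tissue of mice. The comparison used 6 of the 12 libraries for the anomalies, from 5 of the 11 animals, and 4 libraries from 4 normal animals. Both pieces of M566, one titled leg and one arm, were averaged, and animals M580, F578, M610 and M605 gave 1 library each. The titles of the 4 normal libraries, from animals F539, M5, M602 and M2, read ctrl fat. A further 2 anomaly libraries, from animals 18f and M278, have titles with fat in place of subQ, and they serve below as a second group to set the subcutaneous anomalies against. All animals were on the C57BL/6 background. The anomaly animals carried VEC-Cre, SB Transposase and onc3. The normal animals carried SB Transposase and onc3 without VEC-Cre, so the transposase and the transposon donor were common to all groups. Ages were not in the labels. The normal tissue was titled fat and the anomalies subQ, so the site of the tissue and the presence of an anomaly cannot be told apart from the titles.

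VEC-Cre is a Cre recombinase under the promoter of Cdh5, the gene of VE-cadherin, which joins endothelial cells at their contacts. Sleeping Beauty (SB) transposase cuts a transposon such as onc3 out of one genomic site and pastes it into another, which can switch a nearby gene on or off. Normal white fat is made mostly of lipid-filled adipocytes, which store triglyceride, release fatty acids and secrete adiponectin and leptin, with a dense capillary bed between them. Vascular anomalies are lesions of malformed or overgrown vessels. In people many carry mutations in genes of the RAS, MAPK and PI3K pathways, which carry growth signals from the cell surface.

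RNA of whole snap-frozen tissue was sequenced, and the values are log2 CPM as deposited, where CPM are the counts of a gene scaled to the size of its library. Where 6 values are given for the subcutaneous anomalies they run M580, M566 leg, M566 arm, F578, M610 and M605, and 4 normal values run F539, M5, M602 and M2. Depth was 11749969 to 26866825 recovered reads in 5 of the 6 subcutaneous libraries and 10337258 to 33980694 in the normal ones. M580 held 953994, and there 1 read was worth 0.742 CPM (-0.41 log2 CPM). In M580 9367 genes stood at exactly 1 read, whose median in the remaining 5 subcutaneous libraries was 0.125 CPM, so its low values may be too high. The first header line of the table names the column of M605 as a control, while by the line under it and by its labels it is an anomaly, and it was kept as one. Counts that moved by over 1.5 times without M580, without M605 or without both are given beside the results.

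The tissue was checked against marker lists of other cell types that a piece of skin, gland or limb could bring. The summed level of 15 skin and hair follicle genes was 10.91, 14.22, 13.95, 11.20, 4.13 and 10.78 log2 CPM in the subcutaneous anomalies, against 10.59, 5.71, 5.21 and 5.63 in normal adipose. It was high in 5 of the 6 anomaly libraries and in normal animal F539, and low in M610. Krt14, a keratin of basal epidermis, was at 8.62, 12.12, 10.72, 7.26, 0.88 and 8.08 log2 CPM in the anomalies and at 6.90, 0.20, 0.31 and 1.89 in normal adipose. Glandular epithelium genes were at 3.21 (M610) to 10.39 (M605) in the anomalies and highest of all in F539, at 10.82, with 3.15 to 3.65 in the other normal animals. Skeletal muscle genes ran from 5.99 to 12.58 in the anomalies and from 10.13 to 11.47 in normal adipose, and erythroid genes from 8.88 to 13.12 in the anomalies and from 7.59 to 9.61 in normal adipose. None of the 12 skin, 6 glandular or 6 erythroid genes tested passed the threshold of an adjusted p of 0.05 (limma, Benjamini-Hochberg). Without M610 6 of 13 skin genes and 1 of 7 glandular genes were higher, without F539 3 of 12 and 3 of 5, and without M566 1 erythroid gene was lower. Of 14 muscle genes Des (1.07) was higher and Myl1 (-1.72) lower, and neither passed without M602 or without M580 and M605. Myl1 was also lost without M580, M566, M5 or M2. Of 9 nerve genes Ncam1 (2.69, and 2.07 without M610) and Ngfr (1.98) were higher and Pmp22 (-1.24) lower. Of all genes tested, 16.4% were higher and 26.2% lower. The nerve counts were 1 and 0 without M602 or M2, 3 and 0 without M580, 2 and 2 without M605, and 2 and 0 without M566, M610, M5 or both M580 and M605. The part of these tissues in the results below was not tested. In bulk tissue, fewer cells of a type and less RNA per cell cannot be told apart.

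**Figure D1:**
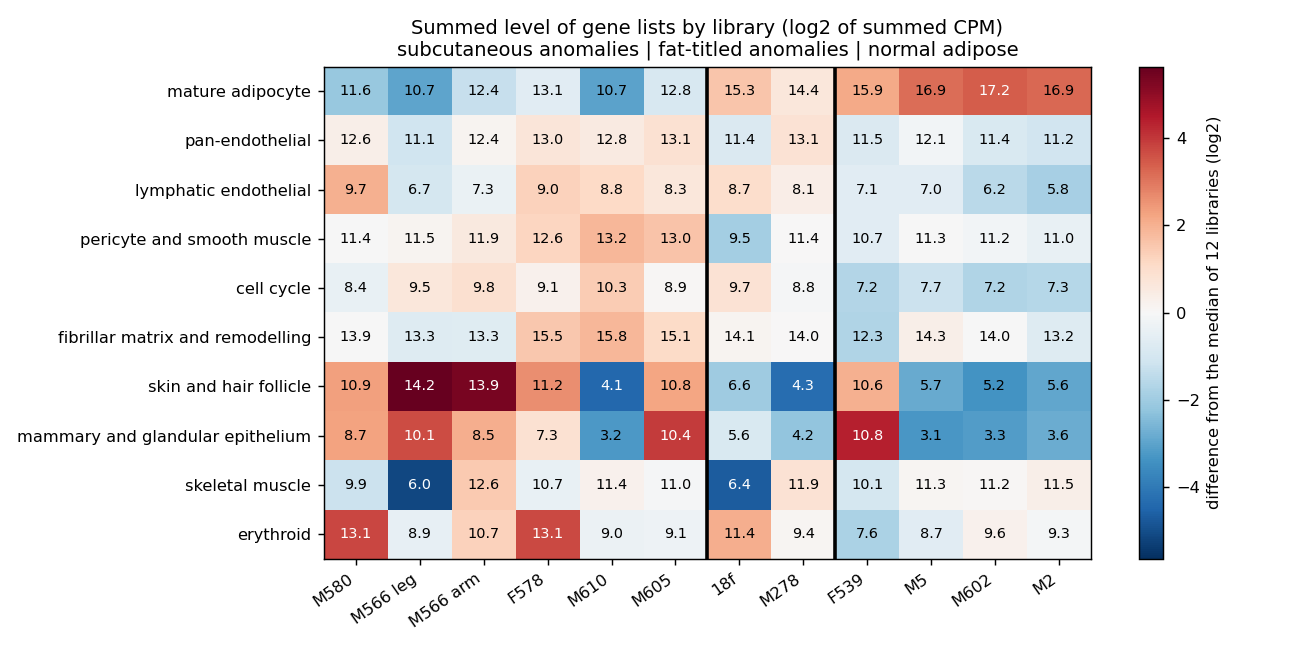
Summed level of 10 gene lists (rows) in each of the 12 libraries (columns), printed as log2 of summed CPM and coloured by the difference from the median of the 12 libraries. Adipocyte genes were lower in every subcutaneous library (at most 13.08) than in every normal one (at least 15.87), and skin and glandular genes were high in F539 as well as in most subcutaneous libraries.

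Of 13006 genes tested, 5538 (42.6%) passed an adjusted p of 0.05, 2127 higher (16.4%) and 3411 lower (26.2%) in the subcutaneous anomalies than in normal adipose. The values of the 5 and 4 animals did not overlap in 4353 genes (33.5%), 1547 of them higher (11.9%) and 2806 lower (21.6%). The counts of calls and of genes without overlap in each list below stand beside these shares of all genes. Past the threshold, 590 genes were higher and 745 lower by at least 4-fold. The median log2 fold change over all genes tested was -0.13. The split between higher and lower rests on the authors' composition scaling. With library totals in its place the median of all genes moved up by 0.47 and 72.8% of the calls were higher, against 38.4%. Without M602 the counts were 1359 higher and 2266 lower, and without M580 and M605 they were 1494 and 2373.

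Genes of the mature adipocyte were lower in the subcutaneous anomalies by the widest margin of any group. Of 26 mature adipocyte genes 25 were lower and none higher, with a median log2 fold change of -5.85, and the groups did not overlap in 24. Pck1 (chromosome 2, 173153048 to 173159273, GRCm38), which makes the glycerol backbone for triglyceride in fat, stood at 3.16, 2.34, 6.09, 7.67, 1.87 and 5.96 log2 CPM in the anomalies and at 11.16, 11.38, 12.01 and 12.28 in normal adipose. Every anomaly library lay below every normal one, and the lowest were M610 and the leg piece of M566. The difference was 140-fold (log2 fold change -7.13 ± 1.03 SE, adjusted p = 0.0013), -6.45 without M610 and -7.90 without F578. Adipoq (chromosome 16, 23146536 to 23158028), the gene of adiponectin, was at 3.16, 2.64, 6.51, 7.82, 1.92 and 7.34 in the anomalies and at 10.55, 12.17, 12.24 and 11.78 in normal adipose (-6.72 ± 1.18, adjusted p = 0.0026; -5.96 without M610, -7.44 without F578 and -7.32 without M605).

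Adipocyte hormones and lipid handling genes followed the same order. Retn, which encodes resistin, was 90.6-fold lower (-6.50; -5.78 without M610). Lep, the leptin gene, was at 4.57, 3.09, 5.54, 7.83, 2.19 and 7.92 in the anomalies and at 8.04, 12.85, 13.05 and 11.30 in normal adipose, where F539 stood near F578 and M605 (-5.94 ± 1.41, adjusted p = 0.0095; -5.15 without M610, -6.56 without F578, -6.58 without M605 and -7.04 without F539). Lep was not past the threshold with limma-voom. Fabp4, a fatty acid carrier, averaged 10.39 ± 0.58 in the anomalies and 14.24 ± 0.55 in normal adipose (SD, n = 5 and 4). Pnpla2, the first lipase of triglyceride breakdown, averaged 7.12 ± 0.86 and 11.69 ± 0.33, and Slc2a4, the insulin-responsive glucose transporter, 4.67 ± 0.77 and 8.60 ± 0.40. Pparg, the transcription factor that directs fat cell differentiation, fell by less, to 5.09 ± 1.07 in the anomalies against 7.61 ± 0.48 in normal adipose (-2.52 ± 0.52, adjusted p = 0.0051). The member that missed the threshold was Cidea, a lipid droplet protein gene (-3.76, adjusted p = 0.088), whose anomaly libraries spread from -2.85 to 6.97. Cidea was -4.89 and passed without M566 (adjusted p = 0.017), so that all 26 were lower, and it was -2.73 without M610, -2.99 without F539 and -4.62 without M5.

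Enzymes that build fatty acids and triglyceride were lower in 14 of 17 cases (median -3.21). Mlxipl, which encodes the glucose-responsive factor ChREBP, averaged 2.56 ± 1.02 in the anomalies and 7.77 ± 0.78 in normal adipose. Agpat2 and Lpin1, enzymes of triglyceride synthesis, had log2 fold changes of -4.58 and -3.55, and Dgat1, which performs the last step, had -2.47. The other 3 members, Acly (-1.56, adjusted p = 0.21), Scd2 (-0.13, 0.89) and Elovl6 (-1.92, 0.27), did not pass. In normal animal F539 these 3 were above the other normal animals, with Acly at 12.68 and the other 3 normal animals at 7.66 to 8.16 log2 CPM. Without F539 the change of Acly was -0.35, that of Scd2 0.59 and that of Elovl6 -0.32 (-2.70 without M5). Of 7 brown and beige adipocyte genes tested out of 10, 5 were lower. They were Ppargc1a (-3.86) and Ppara (-3.29), regulators of mitochondrial genes and fatty acid oxidation, Cox8b (-2.80), Cox7a1 (-1.62) and Ebf2 (-1.39). Without M2, or without M580 and M605, 3 of the 7 passed. Cox8b was -2.22 without F539 and -3.52 without M5, and lost its call without M2. Ebf2 lost its call without M580, M566, M605, M5, M602 or M2.

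Mitochondrial genes were lower too, and more evenly among animals. All 23 respiratory chain and TCA cycle genes tested, of 24 listed, were lower (median -1.65), and 22 or 23 were with any single animal left out. Idh3a (chromosome 9, 54586334 to 54604661), a subunit of isocitrate dehydrogenase, was at 4.89, 5.78, 5.93, 5.51, 5.36 and 5.75 log2 CPM in the anomalies and at 8.38, 8.25, 8.50 and 8.37 in normal adipose. The spread within each group was far smaller than the gap between them (-2.90 ± 0.20, adjusted p = 0.00019). Sdha of complex II had -2.14. Cox5a of complex IV changed least (-0.75, adjusted p = 0.028), and it missed the threshold without F578, M610, M605, M602 or M2.

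**Figure D2:**
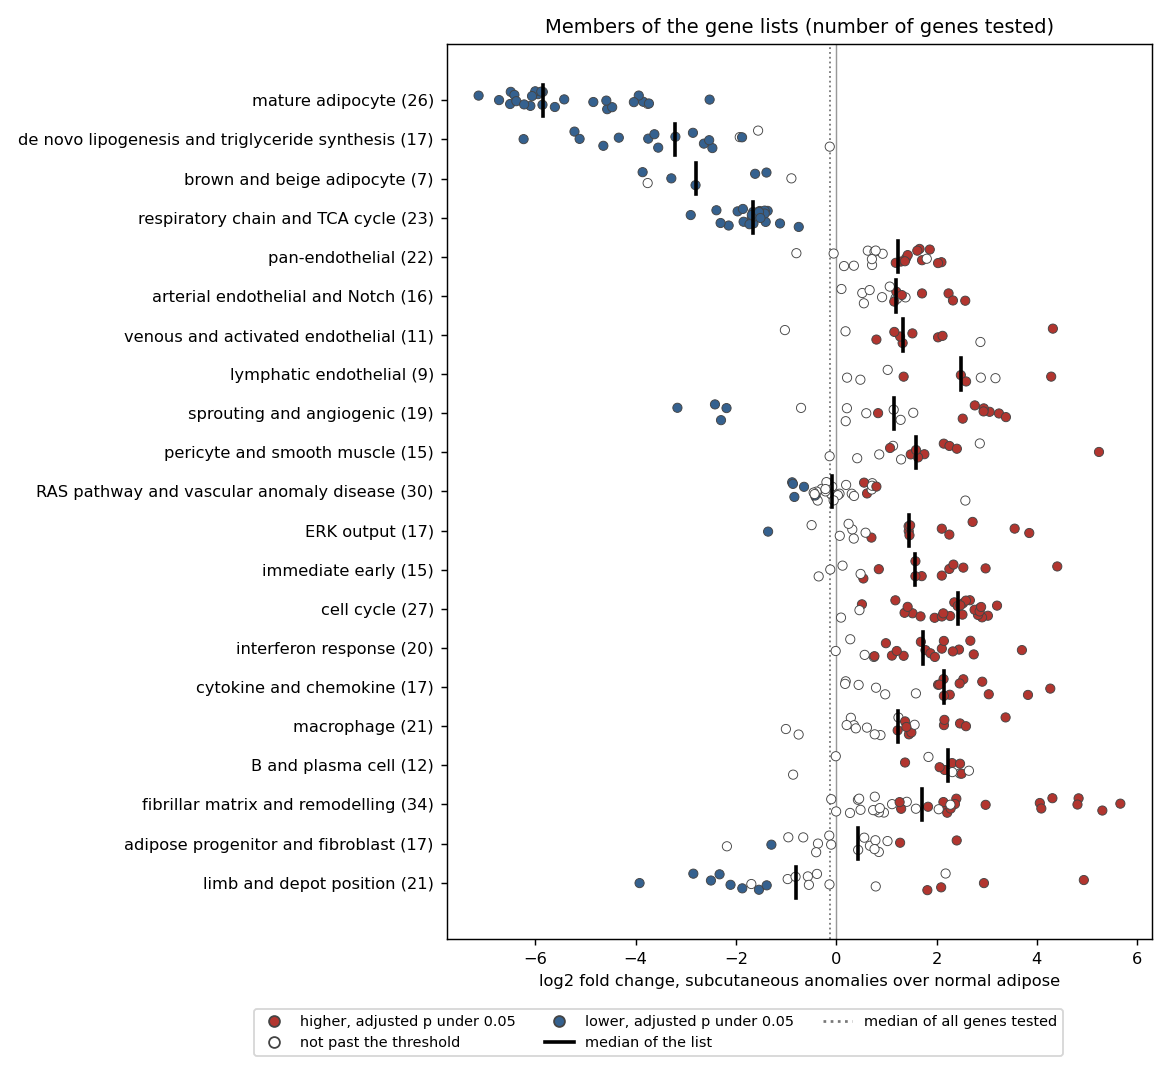
Log2 fold change of every tested member (points) of 21 gene lists (rows), subcutaneous anomalies over normal adipose, with the list median as a bar and the median of all genes (-0.13) as a dotted line. Adipocyte members lie to the left at a median of -5.85, and 25 of 27 cell cycle members are filled as higher.

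Cdh5 (chromosome 8, 104101625 to 104144511) is the endothelial gene whose promoter drives VEC-Cre. It was at 10.02, 7.44, 9.79, 10.58, 10.50 and 10.39 log2 CPM in the anomalies and at 8.31, 9.32, 8.60 and 8.16 in normal adipose. All anomaly libraries but the leg piece of M566 lay above the normal ones, and that piece lay below them. The difference of the means was 2.69-fold (1.43 ± 0.44, adjusted p = 0.027), and it missed the threshold without F578, M610, M605, F539, M602 or M2. Of 22 pan-endothelial genes 11 were higher and none lower (median 1.24), 7 without M602 or without M2, and 6 without M580 and M605. The count was 6 with the leg piece of M566 alone and 17 with the arm piece alone. Ecscr, an endothelial cell-surface protein gene, averaged 6.60 ± 0.51 in the anomalies and 4.51 ± 0.34 in normal adipose, Icam2 6.58 ± 0.50 and 4.55 ± 0.50, and Egfl7, a factor secreted by endothelium, 8.65 ± 0.34 and 7.04 ± 0.32. The junction genes Pecam1 (1.39, adjusted p = 0.020) and Esam (1.29, adjusted p = 0.0059) rose as well. Pecam1 missed the threshold without M602 or without M2. Kdr, the main receptor of VEGF-A on endothelium, averaged 7.78 ± 0.63 and 7.43 ± 0.45 and did not pass (adjusted p = 0.43).

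Vessel-type genes moved in part. Arterial and Notch genes were higher in 7 of 16 tested out of 17, among them Efnb2, the arterial ephrin (2.24), the receptor gene Notch4 (1.71), its target Hes1 (1.31) and the ligand gene Dll1 (1.20, where a non-coding gene overlaps 20.5% of its exons on the other strand). Venous and activated endothelial genes were higher in 8 of 11, 5 without M602 and 4 of 9 without M580 and M605. The apelin receptor gene Aplnr averaged 8.08 ± 0.39 in the anomalies and 5.96 ± 0.74 in normal adipose, and the adhesion molecule gene Vcam1 6.81 ± 0.97 and 4.78 ± 0.54. Nr2f2, a venous identity factor, had a log2 fold change of 1.32 and lost its call without M580 and M605. Flrt2, an adhesion protein gene on venous endothelium, had 1.52.

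Of 9 lymphatic endothelial genes tested out of 11, 4 were higher, 2 of 8 without M580 and M605. They were Foxc2, a factor needed for lymphatic valves, the valve integrin gene Itga9, the VEGF-C receptor gene Flt4 and Pdpn, the gene of podoplanin. Foxc2 was at 3.03, 2.92, 2.24, 3.18, 3.87 and 3.29 log2 CPM in the anomalies and at 0.84, -1.23, -3.51 and -0.47 in normal adipose (4.28 ± 0.76, adjusted p = 0.0026; 3.48 without M602 and 4.93 without F539). All 6 anomaly values lay above all 4 normal ones. Flt4 was at 7.87, 4.98, 5.87, 8.10, 7.21 and 6.55 and at 4.80, 5.11, 4.41 and 3.87 (2.48 ± 0.53), with the leg piece of M566 inside the normal range. Itga9 had 2.59, and Pdpn 1.34 with adjusted p = 0.039, a call lost when M580, F578, M610, M605, M5, M602 or M2 was left out. Prox1, the regulator of lymphatic identity, was below the level needed for the test, at 3.16, -0.15, 0.63, 2.79, 0.69 and 1.64 in the anomalies and 1.42, -2.34, -2.97 and -1.22 in normal adipose.

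Secreted vascular growth factors split in direction. Of 19 sprouting and angiogenic genes 8 were higher and 4 lower (5 and 4 without M2). Of all genes 16.4% were higher and 26.2% lower, so the lower count was not above its share. The 4 lower ones were all growth factors, of which Fgf2 was named after its value was seen. Vegfa (chromosome 17, 46016993 to 46032369) was at 6.54, 8.14, 5.32, 6.20, 7.30 and 5.51 log2 CPM in the anomalies and at 8.33, 8.30, 8.73 and 9.22 in normal adipose (-2.19 ± 0.35, adjusted p = 0.0019). The M566 leg piece came closest to normal adipose and its arm piece was the lowest of all. Vegfb, a VEGF family ligand of adipose and heart, averaged 4.15 ± 0.49 and 7.32 ± 0.34 (-3.17 ± 0.27, adjusted p = 0.00022). Angpt1, the ligand that keeps TIE2 signalling on and vessels quiescent, averaged 1.99 ± 0.69 in the anomalies and 4.40 ± 0.57 in normal adipose. Fgf2 had -2.30. In the other direction, Angpt2 (chromosome 8, 18690263 to 18741562), the context-dependent antagonist of Angpt1 made by endothelium, was at 7.16, 4.90, 6.03, 7.36, 7.54 and 6.60 in the anomalies and at 3.17, 4.57, 4.0 and 3.33 in normal adipose. No anomaly library reached down to a normal one, and the fold was 8.33 (3.06 ± 0.45, adjusted p = 0.0014). The genes Pgf, another VEGF family ligand (2.94, adjusted p = 0.0061), and Apln, the ligand of Aplnr (2.76, adjusted p = 0.022, lost without M2), were both named after their values were seen.

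Mural cells wrap vessels and contract around them. Of 15 pericyte and smooth muscle genes tested out of 16, 9 were higher and none lower (median 1.59), 5 without F578, M605 or M2 and 4 without M602. Pdgfrb, the receptor that recruits pericytes, averaged 8.87 ± 0.90 in the anomalies and 6.73 ± 0.48 in normal adipose, Acta2 9.23 ± 0.84 and 7.60 ± 0.36, and Tagln 4.96 ± 0.84 and 2.70 ± 0.84. Acta2 and Tagln encode contractile proteins, and 62.4% of the exons of Tagln lie under an antisense gene. Actg2, a visceral smooth muscle actin gene, was at 3.74, 2.24, 4.96, 6.64, 3.78 and 5.62 and at 1.87, -0.31, -3.51 and -0.29 (5.24 ± 1.06, adjusted p = 0.0048; 4.25 without M602 and 6.05 without F539).

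**Figure D3:**
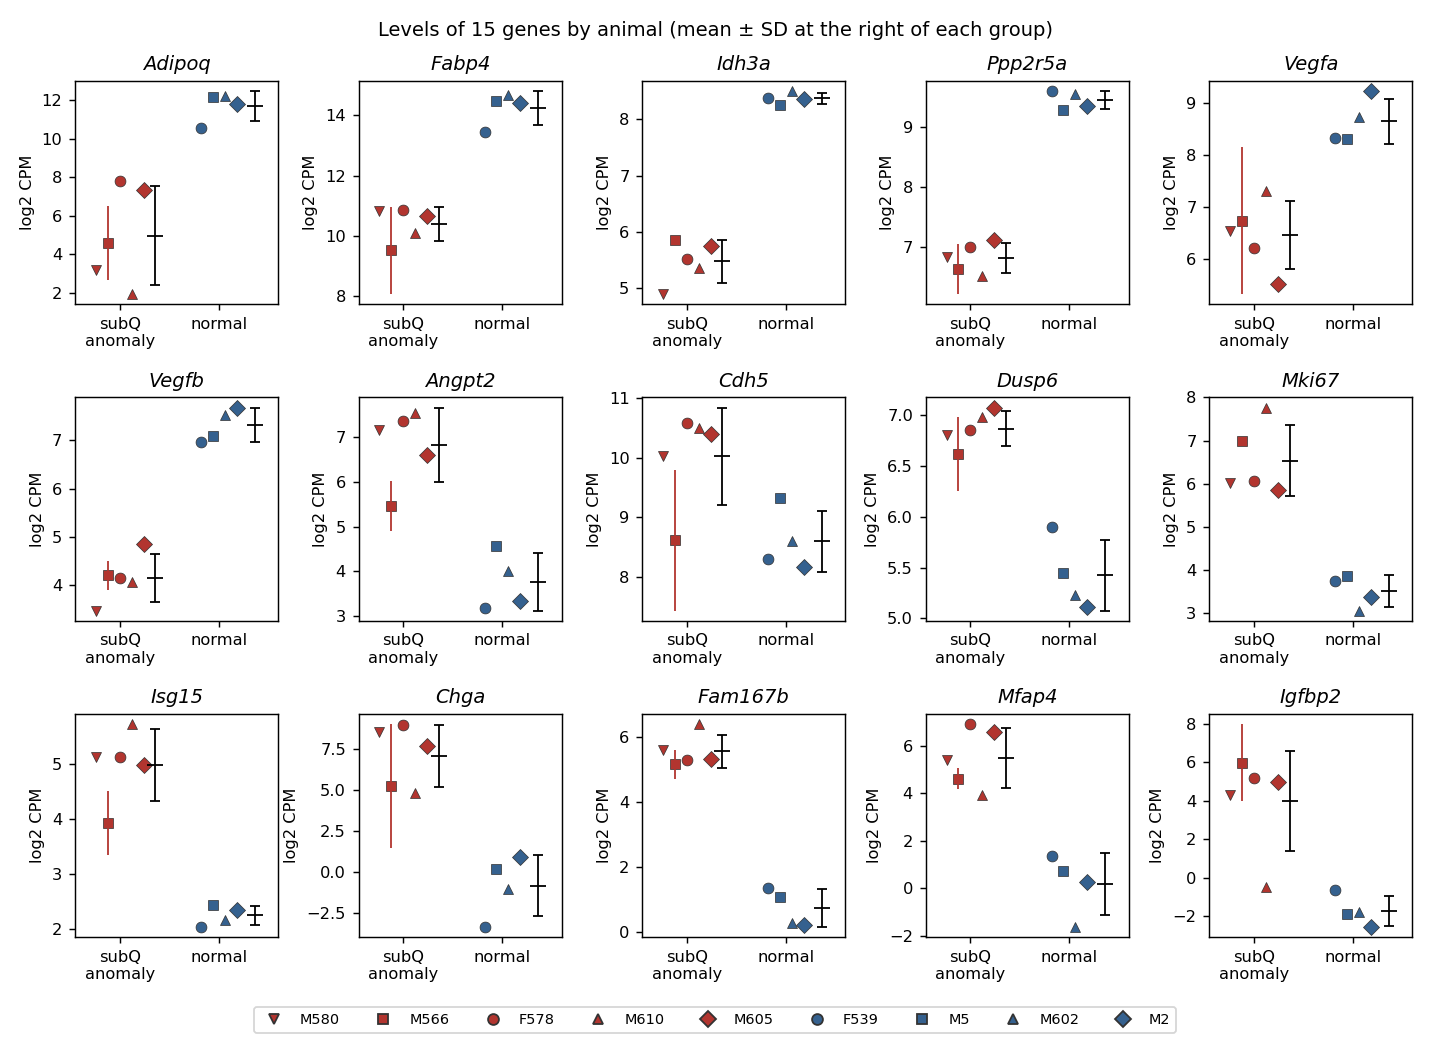
Log2 CPM of 15 genes by animal, subcutaneous anomalies at the left and normal adipose at the right of each panel, with mean ± SD beside each group; the point of M566 is the mean of its pieces and its line spans leg to arm. Idh3a and Ppp2r5a separate the groups with little spread, Adipoq and Chga with wide spread among the anomalies, and Cdh5 overlaps through M566.

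Signalling genes of the RAS pathway and of vascular anomaly disease showed mostly small differences. Of 30 such genes 3 were higher and 6 lower (median -0.09), below the background shares of 16.4% and 26.2%. With library totals 13 were higher and 1 lower. Higher counts were 5 without M566 and 1 without F578, M610, M605, M602 or M2, and lower counts 1 without M5 or M602 and 2 without M2. Without M580 and M605 they were 1 and 4. The largest difference of the list, in the G protein gene Gna14 (2.57, adjusted p = 0.060, named after its value was seen), did not pass. Nras (chromosome 3, 103058285 to 103067914), a RAS GTPase gene, was at 6.75, 6.98, 6.73, 6.85, 6.85 and 6.75 log2 CPM in the anomalies and at 5.85, 6.44, 6.30 and 6.18 in normal adipose (0.61 ± 0.14, adjusted p = 0.0068). The anomaly values were tightly grouped and all above the normal ones. Braf, a kinase gene of the MAPK cascade, had -0.41 with adjusted p = 0.046, and with library totals 0.06. Akt1 (0.55) and the venous receptor gene Ephb4 (0.80) were the other 2 higher genes, and the lower ones included the G protein genes Gnaq (-0.83) and Gna11 (-0.86) and the mTOR inhibitors Tsc1 (-0.42) and Tsc2 (-0.64). Tsc1 stood at 0.04 with library totals, and each of the genes Akt1, Ephb4, Gnaq, Gna11, Tsc1, Tsc2 and Braf missed the threshold when some single animal was left out.

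Transcripts induced downstream of ERK, the last kinase of the MAPK cascade, were higher in 10 of 17 cases and lower in 1 (median 1.44). The count of higher genes was 6 without M2 or without M580 and M605, and 5 without M602. Dusp6 (chromosome 10, 99263231 to 99267489), the phosphatase that ERK induces against itself, was at 6.81, 6.99, 6.26, 6.86, 6.98 and 7.08 in the anomalies and at 5.90, 5.45, 5.23 and 5.12 in normal adipose (1.45 ± 0.18, adjusted p = 0.00068). All anomaly libraries lay above all normal ones. Dusp5, another ERK phosphatase gene, averaged 5.05 ± 0.86 and 1.20 ± 0.89, Ier3 5.61 ± 0.81 and 2.90 ± 0.66, and Egr1, an early transcription factor, 7.52 ± 0.35 and 5.42 ± 0.57. An antisense gene overlaps 22.1% of the exonic bases of Dusp5. Dusp4 was the lower one (-1.36, adjusted p = 0.028), and it lost the call without M580, F539 or M2. Immediate early genes, which also respond to handling before freezing, were higher in 11 of 15, among them Junb (2.53), Ier2 (1.70) and Nr4a1 (1.58). Some genes, among them Fos, stand in both lists.

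Genes of dividing cells were higher nearly throughout. Of 27 cell cycle genes tested out of 28, 25 were higher (median 2.42), the groups did not overlap in 23, and at least 23 passed with any single animal left out. The members that did not pass were E2f1 (0.09) and Ccne1 (0.46), both of entry into S phase. Mki67 (chromosome 7, 135689784 to 135716361), the gene of the Ki-67 antigen, was at 6.01, 6.95, 7.03, 6.06, 7.77 and 5.86 log2 CPM in the anomalies and at 3.76, 3.87, 3.06 and 3.37 in normal adipose. Every anomaly library lay well above the highest normal one, and the fold was 8.13 (3.02 ± 0.40, adjusted p = 0.00085). Rrm2, a subunit of ribonucleotide reductase, averaged 3.95 ± 0.49 and 1.53 ± 0.47, the spindle checkpoint kinase gene Bub1b 4.43 ± 0.52 and 2.07 ± 0.53, and Mcm2 of the replicative helicase 4.79 ± 0.42 and 3.27 ± 0.22.

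Promoters of late cell cycle genes are known for the CHR element, TTTGAA, and for CCAAT boxes. Cdc20, the activator of the anaphase-promoting complex (2.76, adjusted p = 0.0026), and Ccnb2, a mitotic cyclin gene (2.83, adjusted p = 0.0021), were chosen after their values were seen, to show both motifs. The lines give the 250 bases before each start from RefSeq (GRCm38.p6, minus strand for both, read 5′ to 3′), with TTTGAA and CCAAT on the printed strand in capitals, at chr4:118437344-118437593 for Cdc20 and chr9:70421555-70421804 for Ccnb2.
Cdc20: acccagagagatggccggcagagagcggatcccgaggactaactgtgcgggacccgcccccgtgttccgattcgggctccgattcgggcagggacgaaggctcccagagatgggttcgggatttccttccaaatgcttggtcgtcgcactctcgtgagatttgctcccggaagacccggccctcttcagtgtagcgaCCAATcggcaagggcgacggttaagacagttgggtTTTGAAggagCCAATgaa
Ccnb2: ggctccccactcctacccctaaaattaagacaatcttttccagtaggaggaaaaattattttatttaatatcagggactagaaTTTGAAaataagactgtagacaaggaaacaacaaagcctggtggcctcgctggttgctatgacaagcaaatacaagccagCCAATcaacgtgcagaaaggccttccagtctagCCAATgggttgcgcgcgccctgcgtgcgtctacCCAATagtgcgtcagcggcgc
Over windows from 250 bases before to 50 after the start, read on both strands, TTTGAA was in 12 of the 23 cell cycle genes with a promoter in the table (52.2%), against 18.1% of all 27025 genes. CCAAT was in 19 (82.6%), against 37.9%. The E2F motif TTCCCGC was in 1 (4.35%), against 4.66%. In Cdc20 TTTGAA begins 18 bases before the start, between CCAAT boxes at 53 and 8, and in Ccnb2 it begins at 167, ahead of CCAAT boxes at 87, 54 and 21. A match describes letters in the window and not binding.

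Immune genes were higher in several lists. Of 20 interferon response genes 16 were higher (median 1.73), 14 without overlap between the groups, and at least 13 with any single animal left out and 12 without M580 and M605. The members that did not pass were Ifit2 (0.75), Irf1 (0.28), Gbp2 (-0.01) and Gbp3 (0.57). Isg15 (chromosome 4, 156199424 to 156200818), a ubiquitin-like protein gene induced by interferon, was at 5.13, 3.35, 4.52, 5.14, 5.74 and 4.98 log2 CPM in the anomalies and at 2.04, 2.43, 2.16 and 2.35 in normal adipose (2.74 ± 0.32, adjusted p = 0.00057). Its lowest anomaly value was the leg piece of M566. Oasl2 and Oas1a, antiviral 2-5A synthetase genes, had 2.45 and 2.10, and Ifi44 had 3.70.

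Interferon-stimulated genes carry the ISRE, which holds GAAA, any 2 bases and GAAA again, in their promoters. Isg15 and Ifit1, an antiviral RNA-binding protein gene (1.78, adjusted p = 0.0089), are printed in the same way, Ifit1 chosen after its value was seen. The stretches lie at chr4:156200819-156201068 (minus strand) for Isg15 and chr19:34640639-34640888 (plus strand) for Ifit1, with the motif in capitals, in Ifit1 as its reverse complement.
Isg15: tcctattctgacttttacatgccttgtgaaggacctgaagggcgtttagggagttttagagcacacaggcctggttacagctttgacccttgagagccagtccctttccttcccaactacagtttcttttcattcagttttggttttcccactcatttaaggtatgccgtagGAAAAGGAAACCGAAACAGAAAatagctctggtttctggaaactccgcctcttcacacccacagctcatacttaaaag
Ifit1: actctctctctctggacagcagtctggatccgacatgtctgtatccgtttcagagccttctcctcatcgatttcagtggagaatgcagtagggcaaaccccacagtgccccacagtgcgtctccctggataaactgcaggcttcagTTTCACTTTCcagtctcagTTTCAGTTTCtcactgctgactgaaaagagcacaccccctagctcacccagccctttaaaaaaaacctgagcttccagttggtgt
Isg15 holds 3 overlapping matches that begin 78, 72 and 66 bases before its start, and Ifit1 holds matches at 104 and 85. On both strands of the whole window, 10 of 16 interferon genes with a promoter held the motif (62.5%), against 3.49% of all genes.

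Of 17 cytokine and chemokine genes tested out of 22, 11 were higher, among them Cxcl16 (2.53), which draws T cells, Il1rn, the interleukin-1 receptor antagonist gene (3.82), and Il1b (4.27, lost without M602; 3.60 without M580 and 5.09 without F539). Macrophage genes were higher in 10 of 21 tested out of 22 (5 without M602 or without M580 and M605). Cx3cr1, the fractalkine receptor gene, averaged 5.18 ± 0.74 and 1.81 ± 0.93, Ms4a7 5.64 ± 0.86 and 3.05 ± 0.49, and Aif1 4.82 ± 0.56 and 2.67 ± 0.38. Of 17 lipid-associated macrophage and lysosome genes 4 were higher (Cd9, Cd5l, Itgax and Ctsk) and 3 lower (Lpl, Acp5 and Plin2), beside 16.4% and 26.2% of all genes, shares that these counts do not stand far from. Of these Lpl and Plin2 are also expressed by adipocytes. The count of higher genes was 2 without M610, M605, F539, M602 or both M580 and M605. B cell genes were higher in 6 of 12, among them Cd22 (2.5, and 1.85 without M580 and M605), and 3 without M602, without M2 or without M580 and M605. T and NK cell genes were higher in 5 of 13 tested out of 18, Cd4, Cd3d, Trac, Lck and Klrb1c, in 1 without M580, M605, M5, M602 or both M580 and M605, and in 8 of 12 without F578. Of 8 genes of MHC class II presentation 5 were higher, Ctss, Ciita, H2-Ab1, H2-DMa and H2-DMb1, and the count ran from 1 (without M602) to 8 (without M580 or M566), and was 3 without F578, M610, M605, F539, M5 or both M580 and M605. The cathepsin gene Ctss averaged 8.61 ± 0.97 and 6.33 ± 0.79. Monocyte and neutrophil genes were higher in 3 of 7 tested out of 14, Csf3r, Plac8 and Ccr2 (1 without M602), and lymph node stroma genes in 3 of 4 tested out of 10, Cxcl13, Madcam1 and Ltb (5 of 5 without F539, 1 without F578, M5 or both M580 and M605, none without M602). No mast cell gene of 6 tested passed, and 1 did without M566 or F539.

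Matrix genes were higher in 17 of 34 cases and lower in none (median 1.71), 11 without M602. Col12a1, a fibril-associated collagen gene, averaged 7.49 ± 1.14 in the anomalies and 3.43 ± 1.01 in normal adipose, and Timp1, an inhibitor of matrix proteases, 5.52 ± 1.64 and 1.21 ± 0.19 (3.63 without M610, against 4.31). Spp1 (chromosome 5, 104435118 to 104441050), the gene of osteopontin, was at 7.83, 7.08, 2.24, 4.88, 9.61 and 5.55 log2 CPM in the anomalies and at 3.49, 1.39, -0.12 and 1.94 in normal adipose. The arm piece of M566 lay below normal animal F539 (4.83 ± 1.11, adjusted p = 0.0083; 4.05 without M610, 5.44 without F539 and 4.23 without M602). Of 17 fibroblast and progenitor genes tested, Thy1 (2.40) and Icam1 (1.27) were higher and Cd55 (-1.29) lower. Of all genes 16.4% were higher and 26.2% lower, and the higher count lay near its share. Without M566 4 were higher, without M602 1 was higher and none lower, without M5 none was lower, and without F578 or M605 2 were lower. Without M580 and M605 1 was higher and 2 lower.

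Vessel content can also show in blood and clotting genes. Of 13 coagulation and fibrinolysis genes tested out of 16, 5 were higher, the thrombin receptor gene F2r (6.97 ± 0.63 and 4.18 ± 0.70), the protein C receptor gene Procr, and Plat, Plau and Plaur of plasminogen activation, 3 without M605 and 2 without M580 and M605. Plat and Procr lost the call without M605, F539, M602 or M2, Plat also without M580 or F578, and Procr also without M610 or M5. F3, the tissue factor gene, was lower (-1.14, adjusted p = 0.028, lost without M610, M602 or M2). The integrin gene Itgb3, which platelets and also endothelium and macrophages express, averaged 7.05 ± 1.17 and 3.62 ± 0.52. The other platelet genes called, of 5 tested out of 12, were Itga2b (1.17, lost without M580, M610, M5, M602 or M2 and with limma-voom) and Gp1bb. The exons of Gp1bb overlap those of Sept5 over 91.1% of their length, so reads there may not tell these 2 genes apart. In heme and iron handling 4 of 16 genes were higher, Hmox1, Slc40a1, Ftl1 and Slc11a1, and 5 lower, Blvra, Blvrb, Hp, Slc48a1 and Nqo1, near the 16.4% and 26.2% of all genes. The counts were 1 and 1 without M602, M2 or both M580 and M605, 2 and 2 without M610, 2 and 3 without M580, 2 and 6 without F578, 1 and 4 without F539, and 4 and 1 without M5. A gene on the other strand overlaps 26.5% of the exonic bases of Ftl1. Hmox1, which breaks down heme, was at 10.04, 6.71, 6.65, 8.10, 8.84 and 6.50 in the anomalies and at 4.53, 6.32, 5.61 and 5.75 in normal adipose (2.48 ± 0.72, adjusted p = 0.022, lost without F539, M602 or M2). Among the subcutaneous libraries it was highest in M580, where the erythroid sum was 13.12, and next in M610, where that sum was 9.05. F578 had an erythroid sum of 13.09 and less Hmox1 than M610. A link of Hmox1 to red cell content was not tested.

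Glucose and hypoxia genes split evenly, with 6 of 19 higher and 6 lower (5 and 3 without M580 and M605). The shares of all genes were 16.4% and 26.2%. Slc2a1, the basal glucose transporter gene, was at 7.30, 8.83, 6.15, 7.56, 8.08 and 5.47 in the anomalies and at 4.97, 4.50, 4.34 and 4.29 in normal adipose (2.65 ± 0.46). Car9, a hypoxia-induced carbonic anhydrase gene named after its value was seen, had 3.15. Hk2, the insulin-regulated hexokinase gene (-2.32), Pfkfb3, which sets the glycolytic rate (-3.57), and Bnip3, a mitophagy receptor gene (-2.82), were lower. Over the 19 genes of the list, the groups did not overlap in 5 higher and 5 lower ones, beside 11.9% and 21.6% of all genes. An antisense gene overlaps 22.3% of the exonic bases of Bnip3.

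Among the genes with the largest changes, the neuroendocrine granule gene Chga (chromosome 12, 102554969 to 102565028) led the higher ones. It was at 8.55, 1.46, 9.03, 8.95, 4.83 and 7.66 log2 CPM in the anomalies and at -3.37, 0.15, -1.04 and 0.89 in normal adipose, and at 7.25 in M278 and 1.37 in 18f. It was high in 4 of the 6 libraries, intermediate in M610 and lowest in the leg piece of M566, which still exceeded the normal animals. The fold was 237 (7.89 ± 1.11, adjusted p = 0.0011; 7.05 without F539, where it rested on 1 read, and 7.18 without M580 and M605). Of the secretory granule list 4 of 10 genes were tested, and Cpe, a prohormone-processing enzyme gene, was higher (8.70 ± 0.82 and 5.24 ± 0.31) while Syp, the synaptic vesicle gene synaptophysin, was lower (-4.39, adjusted p = 0.0098; an antisense gene covers 16.8% of its exons; -5.37 without F539). Without F578 2 of the 4 were lower.

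The next higher genes were low in normal adipose, so their folds depend on few reads there. Cemip, which degrades hyaluronan, was at 5.45, 3.56, 2.66, 6.12, 2.97 and 1.89 in the anomalies and at -0.67, -3.58, -2.58 and -1.46 in normal adipose (63.0-fold, adjusted p = 0.0019). Igfbp2, an IGF-binding protein gene, was at 4.27, 7.99, 3.98, 5.16, -0.51 and 4.98 and at -0.67, -1.87, -1.80 and -2.56, so that M610 lay beside the normal animals (5.70 ± 1.19, 6.83 without M610; not past the threshold with limma-voom). Mfap4 (chromosome 11, 61485431 to 61488900), a microfibril protein gene of elastic tissue, was at 5.40, 5.06, 4.16, 6.91, 3.94 and 6.58 and at 1.37, 0.71, -1.62 and 0.27 (39.5-fold, adjusted p = 0.0012; 4.70 on the log2 scale without M602, against 5.30). Kif26b (5.67; 6.65 without F539 and 5.02 without M5), the WNT-induced matricellular gene Ccn4 (5.66; 6.55 without F539), the neuronal pentraxin gene Nptx1 (5.50; 6.33 without M5) and Sh2d5 (5.37) completed the 8. These 8, like the 8 lower genes below, were picked only among genes past the threshold whose anomaly and normal animals did not overlap. A mean of at least 3 log2 CPM in the higher group was also required, so larger changes in genes below that level are not named.

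On the lower side, Tmem45b was 127-fold lower (-6.99; -6.18 without M610). The activin receptor gene Acvr1c, known from adipocytes (-6.68), Ankef1 (-6.63) and Tmem179 (-6.53) stood at 1 read in M580, and their changes were -5.92, -5.70 and -5.67 without M610 and -7.37, -7.24 and -7.13 without F578. With Pck1, Adipoq and Retn these were 7 of the 8 lower genes with the largest changes, and the other was A530016L24Rik (-7.17), also at 1 read in M580.

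The next genes were picked for the smallest p-values, a choice that favours even levels within groups. Their evenness and the gap between the groups follow in part from that choice. Fam167b (chromosome 4, 129576815 to 129578549) was at 5.62, 4.72, 5.61, 5.30, 6.41 and 5.34 in the anomalies and at 1.37, 1.09, 0.27 and 0.23 in normal adipose (28.4-fold; 4.83 ± 0.34, adjusted p = 0.00019). The groups were far apart. Also higher were Sdcbp2 (2.45), Gch1, which starts tetrahydrobiopterin synthesis (1.93), Clic1 (1.96) and the p38-beta kinase gene Mapk11 (2.16), besides Gp1bb. Ppp2r5a (chromosome 1, 191351975 to 191403272), a regulatory subunit of phosphatase 2A, was at 6.85, 6.22, 7.06, 7.01, 6.52 and 7.12 and at 9.59, 9.28, 9.54 and 9.35 (-2.62 ± 0.17, adjusted p = 0.00019). Tmem120b (-3.11), a gene needed for adipocyte differentiation, Vwa8 (-1.91) and Lrrc24 (-2.43) were lower as well. Lrrc24 shares 46.8% of its exonic bases with a gene on the other strand, and Tmem120b 18.3%.

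Homeobox genes record position along the body and limb, and adipose depots keep them into adulthood. Of 21 position genes tested out of 29, 4 were higher and 8 lower (median -0.81). Of all genes 16.4% were higher and 26.2% lower, and the higher count lay near that share. The 4 higher ones, Hoxd4 (2.09), Hoxd8 (1.82), Hoxd9 (2.94) and Hoxd10 (4.94), all belong to the HoxD cluster, and 39.1% of the exonic bases of Hoxd4 overlap another gene on the same strand. Hoxd10, named after its value was seen, was at 4.21, 4.83, 3.79, 4.95, 1.37 and 3.42 log2 CPM in the anomalies and at -0.02, -0.79, -2.58 and -1.74 in normal adipose. Of the 8 lower ones, 5 were HoxC genes and 2 HoxA genes, with Shox2 (-1.54, adjusted p = 0.021, lost without M602) as the other. Hoxa9 (-1.39) lost its call without M580, F578, F539, M5 or M2, and with the leg piece of M566 alone (adjusted p = 0.43). Hoxc8 (chromosome 15, 102990607 to 102994111) was at 1.16, 1.09, 4.50, 4.56, 3.19 and 2.53 and at 6.00, 6.82, 7.44 and 6.81 (-3.92 ± 0.59, adjusted p = 0.0015; -3.25 without M580 and M605). Hoxc5 had -2.85 and Hoxa10 -2.33. Within M566 the pieces parted: the leg had Hoxa9 at 6.15 and the arm at 0.57, Hoxa10 at 4.14 and 0.31, and the hindlimb factor Pitx1 at 2.90 and -1.67. Tbx4, another hindlimb factor, was highest in F578 at 3.66, and Tbx5, its forelimb counterpart, averaged 0.48 ± 1.20 in the anomalies and 2.18 ± 0.73 in normal adipose (adjusted p = 0.057; 0.025 without M605 and 0.033 without F539).

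**Figure D4:**
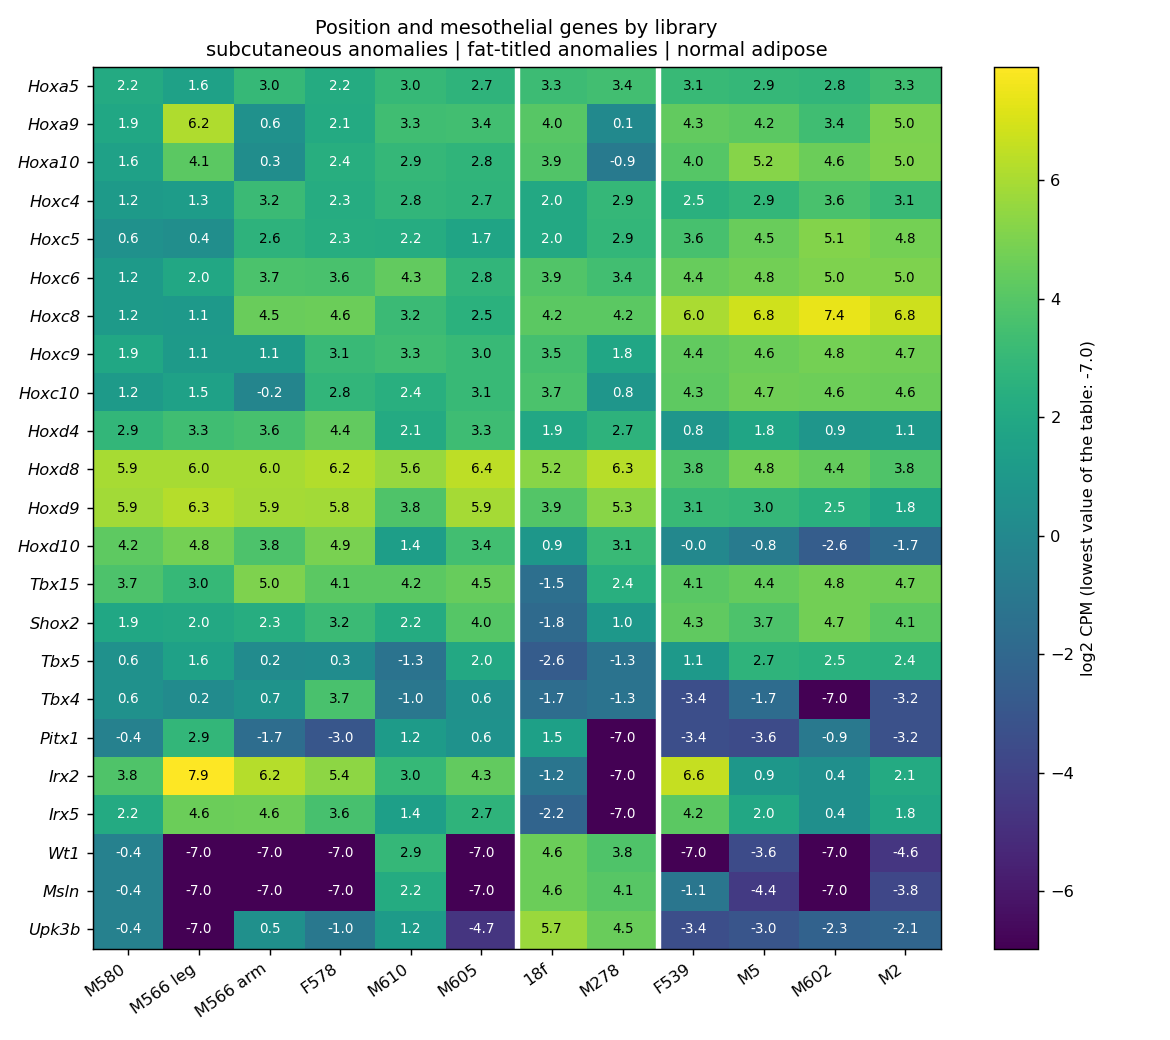
Log2 CPM of 23 position and mesothelial genes (rows) in each library (columns), subcutaneous anomalies, fat-titled anomalies and normal adipose separated by white lines. Hoxd10 is high in the subcutaneous anomalies and Hoxc8 in normal adipose, Hoxa9 and Pitx1 part the leg and arm pieces of M566, and Wt1 is high in the 2 fat-titled anomalies.

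Mesothelial cells cover the visceral fat depots of the body cavity. Wt1 was at -0.41, -6.97, -6.97, -6.97, 2.92 and -6.97 in the subcutaneous anomalies, at 4.58 and 3.85 in the fat-titled anomalies 18f and M278, and at -6.97, -3.58, -6.97 and -4.63 in normal adipose, where -6.97 is the value of 0 reads and -0.41 in M580 that of 1 read. It was above 1 CPM in M610 and in both fat-titled anomalies, and in no other library. Msln and Upk3b lay at 4.55 and 4.07 and at 5.66 and 4.50 in the fat-titled anomalies, at most at 2.19 and 1.21 in the subcutaneous ones, and at most at -1.14 and -2.09 in normal adipose. The sum of all 8 mesothelial genes did not follow these 3. It was highest in normal animal F539 (8.15), where Krt19, a keratin gene also expressed in glandular epithelium, was at 8.09, and it was 7.26 in F578, 7.30 in 18f and 6.66 in M278. The other subcutaneous libraries were at 3.9 to 5.18 and the other normal animals at 1.64 to 2.69. Of the 8, Gpm6a (2.74, lost without M580, F578, M605, M5, M602 or M2) and Krt19 (0.19, adjusted p = 0.95) were tested against normal adipose.

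Between the subcutaneous and the fat-titled anomalies few genes passed. Among 12955 genes, 2 passed as higher (0.0154%) and 3 as lower (0.0232%) in the subcutaneous anomalies, 5 in all (0.0386%), with 1921 at an unadjusted p under 0.05. The animals of the groups did not overlap in 552 genes that were higher (4.26%) and 1751 that were lower (13.5%), 2303 in all (17.8%). The fat-titled group holds 2 animals, and without M278 the counts were 92 and 116, with the lone animal 18f assumed to vary like the others; without 18f, leaving M278 alone, they were 4 and 3, without M566 0 and 3, without M605 3 and 1, without F578 no gene passed, and the 7 anomaly animals fitted alone gave none. Prdx1 (chromosome 4, 116685544 to 116700822), a peroxiredoxin gene, was at 7.36, 8.06, 7.06, 7.29, 7.29 and 7.60 log2 CPM in the subcutaneous anomalies and at 9.0 and 9.21 in 18f and M278, while normal adipose stood at 7.20 to 7.62 (-1.68 ± 0.18, adjusted p = 0.037). Srxn1, which encodes the reductase of oxidised peroxiredoxins, was at 4.69 to 6.00 against 7.78 and 7.18 (-1.80 ± 0.24, adjusted p = 0.040). On the deposited scale normal adipose lay at the level of the subcutaneous anomalies in both genes. With library totals both passed as higher in the subcutaneous anomalies than in normal adipose (limma, Prdx1 0.51 with adjusted p = 0.0176, Srxn1 0.52 with adjusted p = 0.0182). Col23a1, a transmembrane collagen gene, was higher (2.72 ± 0.35), at 2.88 to 4.96 against 0.76 and 1.32. Vwa3a was lower (-3.53 ± 0.47), and it stood at 1 read in M580. Eif3j1 was higher (2.38 ± 0.30), at 1.90 to 2.66 against 0.23 and -0.34. Its near-identical copy Eif3j2 went the other way, at -1.83 to 0.13 against 2.80 and 1.74, so reads of the pair could be divided differently among the animals. Each of the 5 genes missed the threshold when some single anomaly animal was left out.

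**Figure D5:**
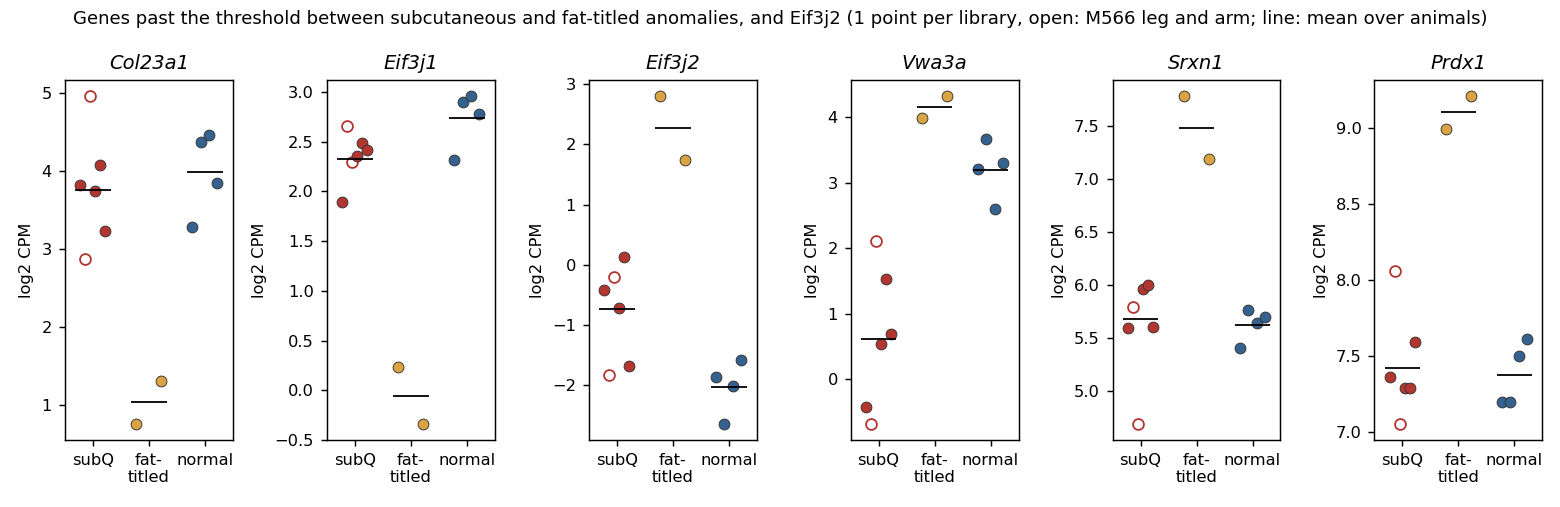
Log2 CPM of the 5 genes past the threshold between subcutaneous and fat-titled anomalies, and of Eif3j2, with 1 point per library (open points are the M566 pieces) and a line at the mean over animals. On the deposited scale Prdx1 and Srxn1 are at the normal level in the subcutaneous anomalies and above it in 18f and M278, and Eif3j1 and Eif3j2 move in opposite directions.

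Of 20 position genes tested out of 29, none passed between the anomaly groups. The next 3 were named after their values were seen. Irx2 and Irx5, Iroquois factors expressed in mammary and subcutaneous fat, stood at 3.0 to 7.92 and 1.41 to 4.64 in the subcutaneous anomalies, and at -1.19 and -2.17 in 18f and the 0-read value in M278 (adjusted p = 0.15 and 0.10). Tbx15, a factor of subcutaneous fat, was at 3.03 to 5.03, against -1.53 and 2.40, and at 4.10 to 4.76 in normal adipose (3.67, adjusted p = 0.15; 5.64 without M278, adjusted p = 0.00023, and 1.70 without 18f, adjusted p = 0.19).

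The leg and arm pieces of M566 come from 1 animal and have no replicate. Over 6713 genes at 5 log2 CPM or more in the higher piece, 261 were at least 4-fold higher in the leg and 246 in the arm, and the median difference was 0.06. Muscle genes were lower in the leg by 6.59 log2 units in sum, with 0.31 for the myosin gene Myh4 in the leg and 10.64 for it in the arm. Adipocyte genes were lower in the leg by 1.69, endothelial genes by 1.30 and interferon genes by 1.18, and monocyte and neutrophil genes were higher by 2.76. The acute-phase gene Lcn2 had 10.44 in the leg against 1.56 in the arm, and Awat2, a wax synthase of sebaceous glands, at 11.07 and 2.28.

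The anomaly animals varied more than the normal ones, with a median SD per gene of 0.38 and 0.29. Among called genes the widest spread was in Klk10 and Sprr1a, both of squamous epithelium, Ptprn, of dense-core vesicles, Retnla and Aldh1a7. Sprr1a lost its call without M5 or M602, and Ptprn without M602. With limma-voom Sprr1a, Ptprn, Klk10 and Retnla all missed the threshold. Klk10 was at 6.71, 9.64, 4.87, 5.87, -0.91 and 7.11 in the anomalies and at 0.33, -1.0, -1.80 and 0.11 in normal adipose (5.80 ± 1.58, adjusted p = 0.017; 7.33 without M610, and not past the threshold without M602 or without M580 and M605). It was low in M610, where the skin sum was 4.13, and also in normal animal F539, where that sum was 10.59. A link of Klk10 to skin content was not tested. Retnla, secreted by alternatively activated macrophages and fat, was at 0.58, 1.92, 6.46, 6.86, -0.12 and 5.38 and at 6.54, 8.99, 8.13 and 8.01 (-4.54 ± 1.40, adjusted p = 0.028, lost without M580, M5, M602 or M2; -3.84 without M580, -5.41 without F578 and -3.67 without M610). It was lowest in M610, M580 and the M566 leg piece, the libraries with the lowest Adipoq.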

How the data were processed

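RNA of 12 snap-frozen mouse tissue pieces was sequenced from unstranded poly-A libraries, per the labels' protocols. STAR, limma and the mouse build mm10 are named, with no versions, per the submitters' processing notes. The authors deposited log2 CPM values for 32774 Ensembl genes, scaled for library composition. Recovered reads came out whole (tolerance 0.1) for 100% of values. Each of 12 columns was tied to a sample by the second header line, and the duplicated control name of M605 in the first was not followed.

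The 2 pieces of M566 were averaged, so the animal was the replicate, and the log2 CPM values as deposited were tested in genes with a mean of 1 or more. The test was limma 3.58.1 (R 4.3.3, trend and robust options, statmod 1.5.0), two-sided, Benjamini-Hochberg adjusted over all genes tested, with a threshold of 0.05. Errors of log2 fold changes are SE. The fat-titled comparison used the same model on all 3 groups. Alternatives left out each animal, or M580 and M605, or F578 and F539 together, used 1 piece of M566, both pieces, library totals, other size factors or filters, or limma-voom on recovered reads. Scripts were tested on simulated data. Text processing used Python 3.11.15 and pandas 2.3.3.

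Named genes were the 8 largest changes each way among non-overlapping genes, the 6 smallest p-values each way, up to 4 members per list by p, a fixed set, and the largest differences between anomaly groups, between the M566 pieces and in spread. Members that complete a count, and Cidea, Cox5a, Fgf2, Pgf, Apln, Dusp4, Ifit1, Car9, Cdc20, Ccnb2, Tbx15, Irx2, Irx5, Krt14, Krt19, Gna14 and Eif3j2, were named after their values were seen. The members and lists were chosen with earlier results of these data known. Lists share members. A few genes that the rule names are not reported here. Nothing in the labels says that animals were littermates or handled together.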

Additional observations from a re-analysis of the deposited data

Results flagged for a closer look

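Of 400 groups of 4 or 5 animals examined, 23 had 1 animal apart from the others by more than Dixon's critical value, which chance gives in about 1 in 20 groups. All values here are log2 CPM, with those of the other animals of the group in brackets.

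Animal F578 of the subcutaneous anomalies group stood apart with Procr high at 9.41 (5.28 to 6.45). Animal M566 of the subcutaneous anomalies group stood apart with Cdh5 low at 8.61 (10.02 to 10.58), Egfl7 low at 8.06 (8.65 to 8.88) and Slc11a1 low at 4.46 (6.43 to 7.23). Animal M580 of the subcutaneous anomalies group stood apart with Eif3j1 low at 1.90 (2.36 to 2.49) and Tsc2 low at 5.72 (6.43 to 6.72). Animal M610 of the subcutaneous anomalies group stood apart with Igfbp2 low at -0.51 (4.27 to 5.98), Kif26b high at 5.47 (4.21 to 4.53), Pparg low at 3.24 (5.20 to 5.94), Klk10 low at -0.91 (5.87 to 7.26), Egr1 low at 6.91 (7.60 to 7.74), Cxcl16 high at 6.98 (6.03 to 6.30) and Hoxd9 low at 3.85 (5.85 to 6.10). Animal F539 of the normal adipose group stood apart with Ccn4 high at 1.56 (-2.09 to -1.90), Gna11 low at 6.83 (7.39 to 7.47), Pfkfb3 low at 9.41 (10.66 to 10.90), Acly high at 12.68 (7.66 to 8.16), Nqo1 high at 4.12 (3.24 to 3.26) and Ncam1 high at 1.72 (-0.05 to 0.20). Animal M2 of the normal adipose group stood apart with Egr1 low at 4.57 (5.67 to 5.74). Animal M5 of the normal adipose group stood apart with Akt1 high at 7.67 (7.35 to 7.38). Animal M602 of the normal adipose group stood apart with Car9 low at -2.02 (-0.46 to -0.16) and Ftl1 low at 0.88 (1.74 to 1.82).

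Between the subcutaneous and the fat-titled anomalies the tested differences were -1.68 for Prdx1, 2.38 for Eif3j1, -1.80 for Srxn1, -3.53 for Vwa3a and 2.72 for Col23a1, as given above.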

How the results depend on the processing

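Of the 179 genes of the text that passed the threshold against normal adipose, 115 passed under each of the 22 alternatives in which they were tested. A gene below the level filter of an alternative was not tested there and was not counted as lost. In at least 1 alternative 64 lost the call, from 1 gene with log2(CPM + 1) to 52 without M602. With limma-voom 20 lost it. The 2127 higher genes ranged from 1359 to 2195 with 1 animal left out and were 4808 with library totals. The 3411 lower genes ranged from 2266 to 3747 and were 1799 with library totals. Library totals turned the sign of Braf (0.058, against -0.41) and Tsc1 (0.045, against -0.42). Between the anomaly groups, the 2 higher genes ranged from 0 to 92 with 1 animal left out, and were 0 with the leg piece alone, 0 with the arm piece alone, 12 with no filter and 0 with the 7 anomaly animals fitted alone. The 3 lower genes ranged from 0 to 116, and were 1 with the arm piece, 37 with no filter and 0 in the 7-animal fit. The cause was not tested. No paired analysis was possible because the titles give animal names and no replicate numbers shared between groups. M580 had 953994 reads, which limits low genes there.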

Other observations

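Xist and Ddx3y are normally expressed in female and male mice, and neither was left out of the genes tested. In M566 the leg piece had Xist at 3.30 and Ddx3y at 5.35 log2 CPM, and the arm piece had them at 5.97 and 4.92, so both transcripts were present in both pieces. In F578 Xist was at 9.71 and Ddx3y at -2.96, and in M610 at 0.01 and 5.07. Normal animal F539 had Xist at 9.38 and no Ddx3y read, and M2 had 0.38 and 6.48. Without F578 and F539 together, 1967 genes were higher and 3557 lower in the subcutaneous anomalies.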
